A study of Mus musculus with 8 samples.

Results

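A set of 10 genes linked to thalamic relay neurons was followed over 8 arrays of mouse thalamus, namely Prkcd, Tcf7l2, Ntng1, Vav3, Rgs16, Ptpn3, Vipr2, Adcy1, Shank3 and Prkch. They were 10 of the 19938 genes that had a probe set (the set of array probes that reads 1 transcript) annotated with a single gene symbol. They were picked with earlier results of these same arrays in view, most of them as higher in MPTP than in control mice. Rgs16 was picked for its level in acupoint against MPTP mice, and Vav3 had also been named for high levels on the acupoint arrays. All comparisons with the control or MPTP arrays are therefore described below without a test. Where a gene had several probe sets, that with the highest mean was used, and all 10 members passed the brightness filter. The arrays came from male C57BL/6 mice, 6 weeks old at the start, with 4 groups and 2 mice per group. Control mice had intraperitoneal saline (0.9%) every 24 hr for 4 weeks. The other 3 groups shared the injection of MPTP, 20 mg/kg of its free base on the same schedule, a neurotoxin of dopamine neurons that models parkinsonism. The MPTP group was not needled, the acupoint group was needled by hand at GB34 and LR3 on the hind limb, and the non-acupoint group at both hips, each in 14 sessions 48 hr apart. RNA came from bulk bilateral thalamic tissue, so more cells of a type and more RNA per cell cannot be told apart.

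Relay neurons are the glutamatergic projection cells of the thalamus, which carry sensory and motor signals to the cortex. They differ from the GABAergic neurons of the thalamic reticular nucleus in transcription factors such as Tcf7l2, which the habenula also expresses, and in signalling genes such as Prkcd. The members cover several steps of neuronal signalling, from a peptide receptor and a cyclase through kinases and a phosphatase to the postsynaptic scaffold.

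Across the 15791 probe sets tested, which are not independent replicates, 2 arrays stood apart, namely mouse 1 of the MPTP group and mouse 1 of the non-acupoint group. Their mutual correlation was 0.982, against 0.905 to 0.936 for either of them with any of the remaining 6. Among those 6 the correlations were 0.981 to 0.995. The MPTP difference of each member, and some other values, are therefore also given without these 2 arrays, which leaves 1 MPTP and 1 non-acupoint array. Array medians lay between 6.18 and 6.29 on the log2 scale, and with 8 arrays the precision of all values below is limited.

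On the probe sets used, the label of the genes held for 9 of the 10. For members picked as higher in MPTP mice this restates the choice. In Prkcd, Tcf7l2, Ntng1, Vav3, Ptpn3, Vipr2, Adcy1, Shank3 and Prkch every one of the 6 MPTP-injected arrays lay above both controls, needled or not. In Rgs16 the MPTP and control arrays overlapped, and only the needled mice lay above the controls. All 6 injected arrays lay above both controls in 10.3% of the probe sets tested. In MPTP against control alone, the comparison most members were picked on, 9 of 10 members did not overlap and were higher, against 18.2% of probe sets. The members were picked on these arrays, so nothing is read from either count. All levels below are log2 values, on which a step of 1 is a doubling, and group values are means ± SD of 2 mice.

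**Figure D1:**
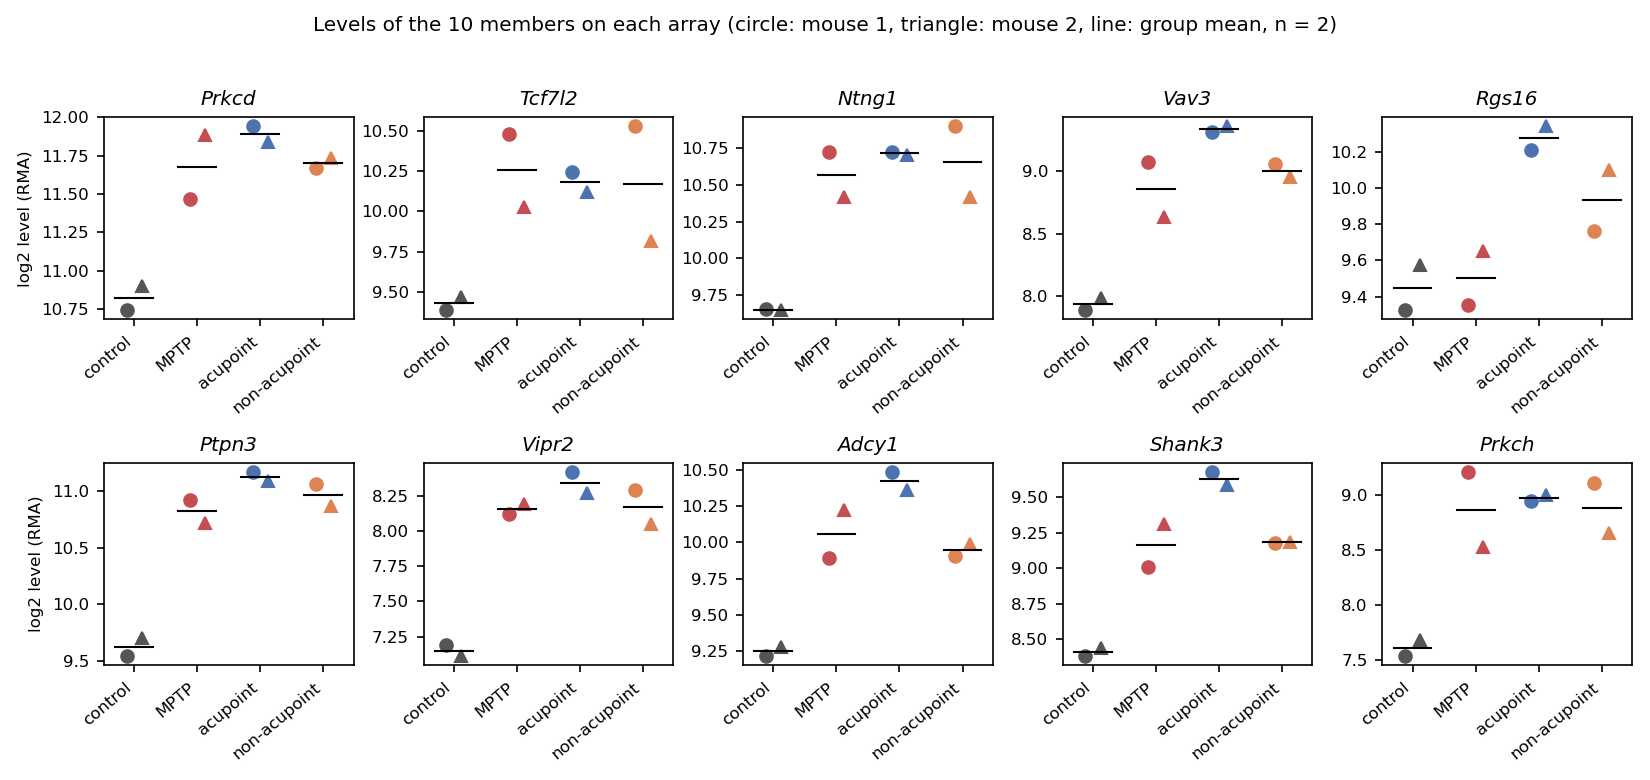
Log2 level of each member (vertical axes, separate scale per gene, not starting at 0) on the 8 arrays by group, with mouse 1 as circles, mouse 2 as triangles and the group mean as a line. Controls are the lowest group in every panel, and in Rgs16 the MPTP mice (9.35 and 9.65) overlap the controls (9.33 and 9.57).

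Tcf7l2 encodes the HMG-box transcription factor that mediates Wnt and beta-catenin signalling and maintains the identity of thalamic projection neurons. It stood at 9.39 and 9.47 in controls, 10.48 and 10.03 in MPTP mice, 10.25 and 10.12 in acupoint mice, and 10.53 and 9.81 in non-acupoint mice. The 2 arrays that stood apart were the highest, and all 6 injected arrays lay above the controls. The log2 difference from control was 0.83 ± 0.26 (SE) with MPTP alone, and without the 2 arrays it was 0.60. Tcf7l2 was the only member whose acupoint mean (10.18 ± 0.09) was not the highest, and the order of the 3 injected groups was not beyond their spread. Of 14 measured genes of the TCF, LEF and beta-catenin pathway, 7 had all injected arrays above the controls (10.3% of probe sets). None of them passed between MPTP and control. The ubiquitin ligase gene Rnf43, a target and brake of Wnt signalling, differed by 0.75 ± 0.22 (SE) and the related factor gene Lef1 by 0.59 (both adjusted p = 0.714, limma), while Ctnnb1, the beta-catenin gene, overlapped at -0.45 ± 0.49.

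Ntng1 encodes netrin-G1, a membrane-anchored adhesion molecule of thalamocortical axons. Controls stood at 9.65 in both mice, MPTP mice at 10.72 and 10.42, acupoint mice at 10.73 and 10.70, and non-acupoint mice at 10.90 and 10.42. The injected groups overlapped one another and lay above the controls, by 0.92 ± 0.20 with MPTP, 1.06 with acupoint and 1.01 with hip needling (log2, SE of the fit). A second, dimmer Ntng1 probe set (10501483) did not follow on the arrays that stood apart: there it read 7.63 and 7.55, close to the controls at 7.46 and 7.62, while acupoint mice read 8.48 and 8.20. Lrrc4c, which encodes the netrin-G1 ligand on the partner cell, overlapped between MPTP mice and controls (0.40 ± 0.38).

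Vipr2 encodes VPAC2, a receptor for the peptides VIP and PACAP that couples to cyclic AMP synthesis. It was at 7.19 and 7.11 in controls, 8.13 and 8.20 in MPTP mice, 8.42 and 8.27 in acupoint mice, and 8.29 and 8.05 in non-acupoint mice. This member had the smallest spread within groups (pooled SD 0.108), and its difference between MPTP and control, 1.01 ± 0.14 (SE), a 2.02-fold difference, was 1.05 without the 2 arrays that stood apart. Of the other genes of this signalling pair, the PACAP gene Adcyap1 was lower (-0.91 ± 0.31, adjusted p = 0.714, limma), and so was the PACAP receptor gene Adcyap1r1 (-0.41, adjusted p = 0.714), and neither passed the test. The related receptor gene Vipr1 differed by 0.08.

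Adcy1 encodes the adenylyl cyclase that calcium and calmodulin stimulate. Controls were at 9.22 and 9.28, MPTP mice at 9.89 and 10.22, acupoint mice at 10.48 and 10.36, and non-acupoint mice at 9.91 and 9.99. Here the acupoint mice were the highest of all and did not overlap with any other group. The difference from control was 0.81 ± 0.15 with MPTP, 1.17 with acupoint and 0.70 with hip needling. None of the 9 other adenylyl cyclase genes measured had all 6 injected arrays above the controls, and 3 had all 6 below, as 9.66% of probe sets did. Adcy2, for example, was lower in MPTP mice by a log2 difference of -0.41 ± 0.15 (adjusted p = 0.714, limma), which did not pass. Of the 9, 8 passed the brightness filter and were tested between MPTP and control, and none of these 8 passed the threshold.

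Rgs16 encodes a regulator of G protein signalling that speeds GTP hydrolysis by inhibitory and Gq-type alpha subunits. Controls read 9.33 and 9.57, MPTP mice 9.35 and 9.65, acupoint mice 10.21 and 10.34, and non-acupoint mice 9.76 and 10.10. MPTP mice could not be told from controls (log2 difference 0.05 ± 0.19, SE), acupoint mice were above every other array, and non-acupoint mice lay between them. Their differences from control were 0.83 and 0.48. Among the 9 relatives of the same RGS subfamily, Rgs8 also overlapped between MPTP mice and controls (0.05 ± 0.19), with differences from control of 0.40 in acupoint and 0.18 in non-acupoint mice. Rgs4 stood at 10.46 and 10.60 in controls, 10.72 and 10.76 in MPTP mice, 11.13 and 11.19 in acupoint mice, and 10.68 and 11.05 in non-acupoint mice. Both were chosen for mention after their values were seen.

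Prkcd encodes the delta isoform of protein kinase C, which diacylglycerol activates without calcium and which is a classical marker of thalamic relay nuclei. It stood at 10.74 and 10.90 in controls, 11.47 and 11.88 in MPTP mice, 11.94 and 11.84 in acupoint mice, and 11.67 and 11.74 in non-acupoint mice. MPTP mouse 1 was the lowest injected array, and the 3 injected means differed by no more than the spread of the MPTP pair. The differences from control were 0.85 ± 0.17 (1.81-fold), 1.07 (2.09-fold) and 0.88 (1.84-fold) in MPTP, acupoint and non-acupoint mice.

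Prkch encodes the eta isoform of the same kinase family. Its levels were 7.54 and 7.68 in controls, 9.21 and 8.53 in MPTP mice, 8.95 and 9.01 in acupoint mice, and 9.11 and 8.65 in non-acupoint mice. The MPTP difference of 1.26 ± 0.26 (2.39-fold) was the largest of the 10 members, with MPTP mouse 1 the highest array. Without the 2 arrays that stood apart it was 0.92, below Ptpn3 (1.09), Prkcd (1.06), Vipr2 (1.05) and Adcy1 (0.97). A second Prkch probe set (10396419) lay below the brightness filter and read 5.83 and 4.39 in the MPTP mice, the latter at the level of the controls (4.41 and 4.49). Of the other protein kinase C genes, 6 were measured and 3 had all injected arrays above the controls (10.3% of probe sets). The theta isoform gene Prkcq was 0.64 ± 0.25 higher in MPTP mice, with an adjusted p of 0.714 (limma), and none of the 6 passed.

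Ptpn3 encodes a cytosolic tyrosine phosphatase with a FERM and a PDZ domain. Its brightest probe set (10513145) read 9.55 and 9.70 in controls, 10.92 and 10.72 in MPTP mice, 11.16 and 11.08 in acupoint mice, and 11.06 and 10.87 in non-acupoint mice. All injected arrays were at least 1 log2 unit above the controls. The differences from control were 1.19 ± 0.15 (2.29-fold), 1.50 (2.82-fold) and 1.34 (2.53-fold). The array reads Ptpn3 with 12 probe sets, and on all 12 of them the 6 injected arrays lay above both controls. Over the 12, the MPTP difference ran from 0.79 to 1.53 with a median of 1.13, the acupoint difference from 0.94 to 1.80 and the non-acupoint difference from 1.00 to 1.71. The 2 arrays that stood apart were higher than the second mouse of their group on 7 of the 12 probe sets, lower on 3 and mixed on 2, so probe sets of this 1 gene disagreed on these arrays. Probe sets of a gene share the RNA and are not replicates.

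**Figure D2:**
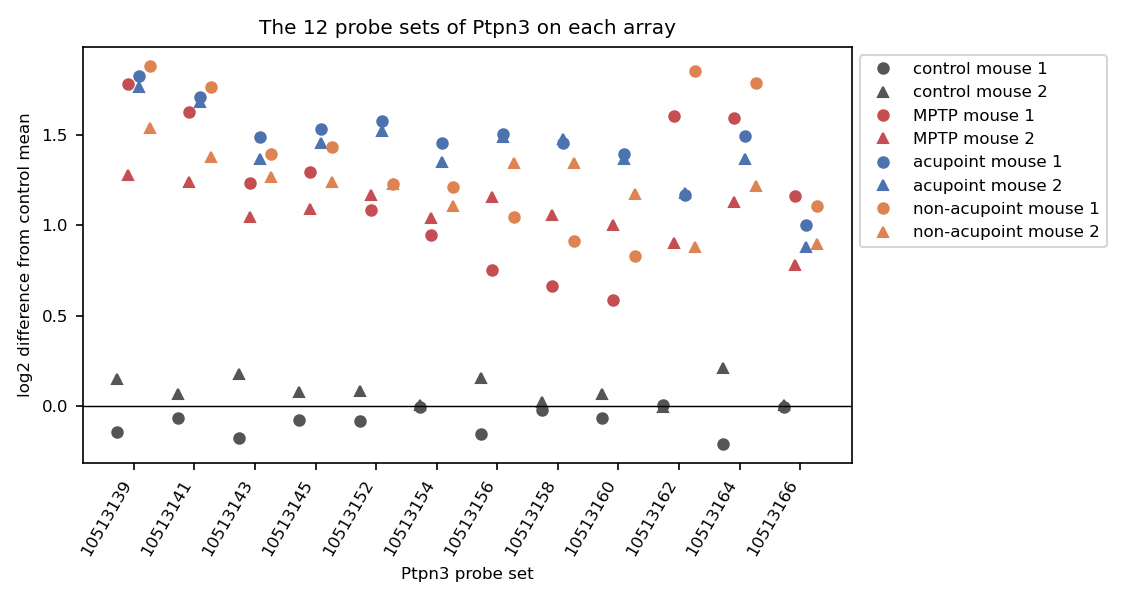
Log2 difference of each array from the control mean (vertical axis) for the 12 Ptpn3 probe sets (horizontal axis, by identifier), circles for mouse 1 and triangles for mouse 2, colours for groups. All injected points lie above all control points on each probe set, while MPTP mouse 1 and non-acupoint mouse 1 change places with mouse 2 between probe sets.

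Ptpn4, the closest relative of Ptpn3 by domain structure, ran alongside it. It stood at 9.89 and 9.93 in controls, 10.93 and 10.65 in MPTP mice, 11.03 and 11.13 in acupoint mice, and 10.96 and 10.69 in non-acupoint mice. All injected arrays were thus higher, with a log2 difference between MPTP and control of 0.88 ± 0.16 (SE), which did not pass over all probe sets (adjusted p = 0.452, limma). The other 3 genes of this phosphatase group, Ptpn13, Ptpn14 and Ptpn21, overlapped between MPTP mice and controls.

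Vav3 encodes a guanine nucleotide exchange factor that acts downstream of cell surface receptors. Controls stood at 7.89 and 7.98, MPTP mice at 9.07 and 8.63, acupoint mice at 9.31 and 9.35, and non-acupoint mice at 9.05 and 8.95. Acupoint mice were above all other arrays, while MPTP and non-acupoint mice overlapped. The differences from control were 0.92 ± 0.17, 1.40 and 1.07. Its paralogs did not follow it in MPTP mice: Vav1 and Vav2 differed between MPTP and control by -0.36 and -0.12. Vav1 lay below the brightness filter and was not tested. In acupoint mice Vav2 lay above the controls without overlap (0.19) and Vav1 below them (-0.29).

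Shank3 encodes a scaffold of the postsynaptic density at excitatory synapses. It stood at 8.38 and 8.43 in controls, 9.01 and 9.31 in MPTP mice, 9.67 and 9.58 in acupoint mice, and 9.18 and 9.18 in non-acupoint mice. The acupoint mice were again above every other array. The differences from control were 0.75 ± 0.15 (1.69-fold), 1.22 (2.33-fold) and 0.77 (1.71-fold). Of 10 related Shank, Homer and Dlgap scaffold genes and Dlg4, 6 had all injected arrays above the controls (10.3% of probe sets). The largest differences between MPTP and control were in Shank1 (0.99 ± 0.34), Homer1 (0.67 ± 0.56, with overlap, as MPTP mouse 1 alone was high) and Homer2 (0.67 ± 0.16), and none of the 10 passed (smallest adjusted p = 0.624, limma, for Homer2).

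**Figure D3:**
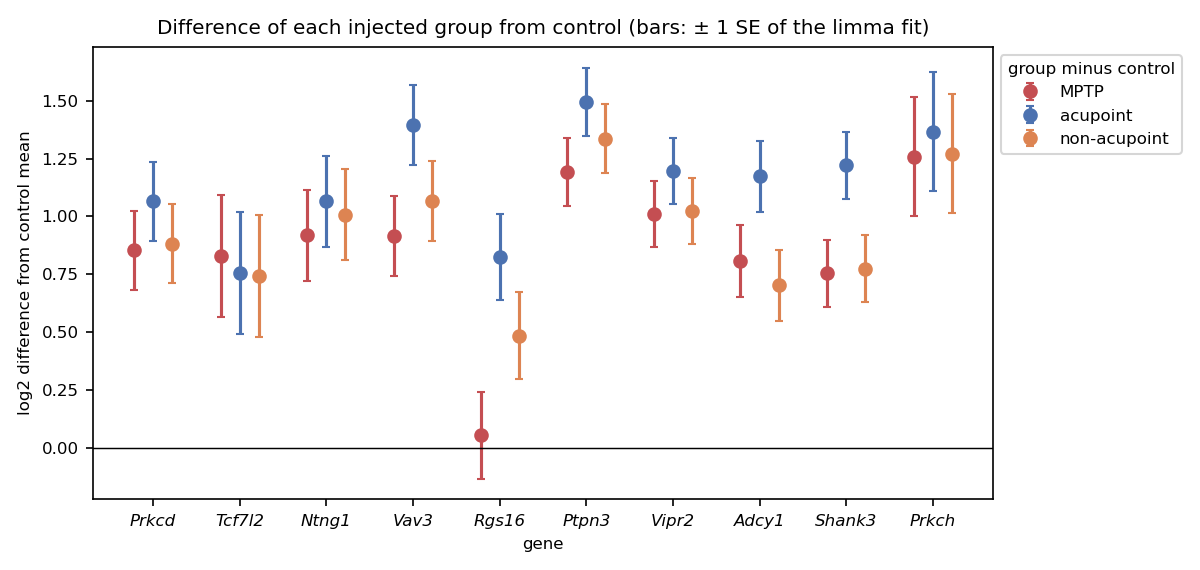
Log2 difference of the MPTP, acupoint and non-acupoint means from the control mean (vertical axis) for the 10 members (horizontal axis), with bars of 1 SE of the limma fit. The points lie between 0.48 and 1.50, except Rgs16 with MPTP alone at 0.05.

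The median difference of the 10 members from control was 0.88 with MPTP (range 0.05 to 1.26), 1.18 with acupoint needling (0.76 to 1.50) and 0.94 with hip needling (0.48 to 1.34), against medians over all probe sets tested of -0.02, -0.00 and -0.02. The 3 comparisons share the control arrays, which were used in choosing the members, so they are given side by side only. Without the 2 arrays that stood apart, the MPTP difference was 0.69 in Vav3 (0.92 on all arrays) and 0.77 in Ntng1 (0.92). In Shank3 it was 0.90 (0.75) and in Rgs16 0.20 (0.05). The non-acupoint difference was then 0.39 in Tcf7l2 (0.74 on all arrays) and 0.65 in Rgs16 (0.48). All 4 needled arrays lay above both controls in all 10 members and in 16.8% of probe sets. Taken by group, all 10 members lay without overlap above the controls in acupoint mice, where 30.4% of probe sets did, and in non-acupoint mice, where 25.5% did. The control mean was the lowest and the acupoint mean the highest of the 4 group means in 9 of the members and in 6.61% of probe sets. These member counts follow in part from the choice of the members on these arrays, and nothing is read from them. The spread between the 2 mice differed among groups: the member SDs had a median of 0.06 in controls, 0.23 in MPTP, 0.07 in acupoint and 0.15 in non-acupoint mice.

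The members parted on the 2 arrays that stood apart. Tcf7l2, Ntng1, Vav3, Ptpn3 and Prkch were higher in mouse 1 than in mouse 2 of both the MPTP and the non-acupoint group, as in Prkch by 0.68 and 0.45. Prkcd, Rgs16, Adcy1 and Shank3 were lower in both mice 1, in Shank3 by less than 0.01 in the non-acupoint group. Rgs16 differed there by -0.30 and -0.34, but mouse 1 was also lower in the control (-0.25) and acupoint (-0.13) pairs. The non-acupoint differences of Prkcd (-0.07) and Adcy1 (-0.08) stood beside control pair differences of -0.16 and -0.06. Vipr2 was mixed. These 2 sets were formed after the values were seen and carry no test.

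Acupoint against non-acupoint needling is the comparison whose 4 arrays were not part of MPTP against control, and it was tested. It was not free of the choice for Rgs16 and Vav3, which had been named for high levels on the acupoint arrays. On the probe sets used, all 10 members, these 2 included, had the higher mean in acupoint mice, where 52.3% of probe sets did. The median log2 difference of the members was 0.18, with a range of 0.01 in Tcf7l2 to 0.47 in Adcy1. The median over all probe sets was 0.01. A list of 17 other relay neuron genes, described below, had a median of 0.15, with 12 genes higher in mean. Of that list, 7 genes were higher without overlap and 1 was lower without overlap. The groups did not overlap in 6 members (Prkcd, Vav3, Rgs16, Ptpn3, Adcy1 and Shank3), against 13.8% of probe sets that were higher without overlap. For Ptpn3 this holds for its brightest probe set, where the lower acupoint mouse read 11.08 and the higher non-acupoint mouse 11.06. The Ptpn3 difference was -0.19 on probe set 10513162, -0.07 on 10513164 and -0.06 on 10513166. On the rest of its 12 probe sets it was positive, up to 0.38. No member passed the adjusted threshold (adjusted p from 0.893 to 0.992, limma with Benjamini-Hochberg adjustment over 15791 probe sets), nor did any other probe set. An unadjusted p under 0.05 was reached by 2 members and by 1.89% of probe sets. Adcy1 differed by 0.47 ± 0.15 (SE, 95% interval 0.10 to 0.84, unadjusted p = 0.0201 in limma, adjusted 0.893). Shank3 differed by 0.45 ± 0.15 (95% interval 0.10 to 0.80, unadjusted p = 0.0199 in limma, adjusted 0.893).

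For the other members the intervals of the difference included 0. They ran from -0.11 to 0.79 in Rgs16, from -0.09 to 0.75 in Vav3 and from -0.62 to 0.65 in Tcf7l2, so differences within these bounds are not excluded. Rgs16 and Vav3 had been named before for high levels on the same acupoint arrays, so their values here are not independent of the choice. Without the 2 arrays that stood apart, all 10 differences were positive, with a median of 0.31. At an unadjusted p under 0.05 there were then 8 members and 8.92% of probe sets (smallest adjusted p of a member 0.313, limma), with non-acupoint mouse 2 as the whole of its group. The spread in that fit came from the control and acupoint pairs alone, whose median member SDs (0.06 and 0.07) were below those of the MPTP and non-acupoint groups (0.23 and 0.15), and the lone arrays were assumed to vary like them, so those p-values carry no weight of their own. Without either acupoint mouse or without non-acupoint mouse 1 there were 0 members at that p, and without non-acupoint mouse 2 there was 1, beside 12.6% of probe sets.

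**Figure D4:**
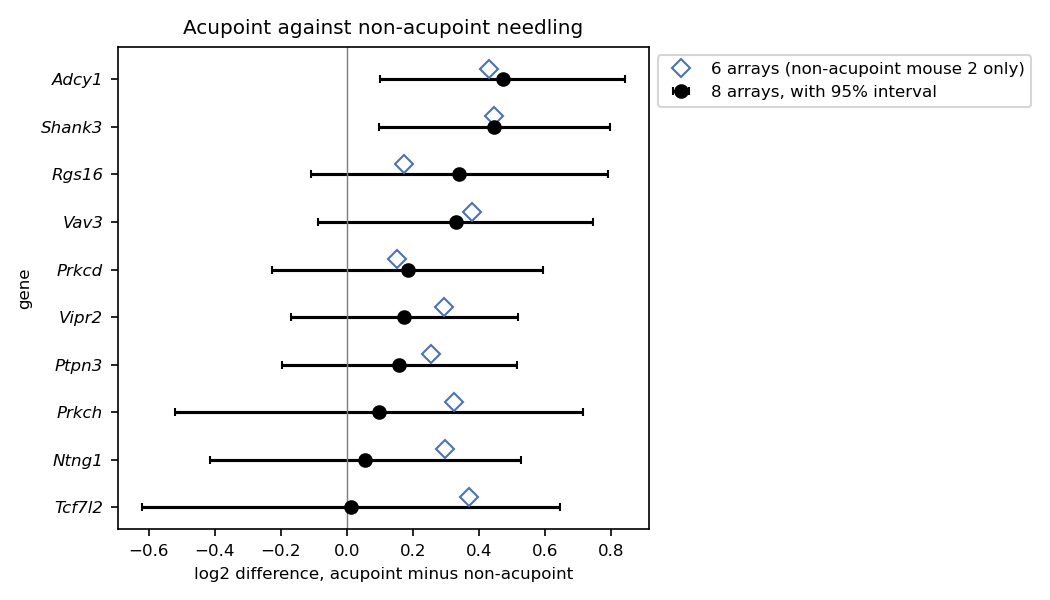
Log2 difference of acupoint minus non-acupoint mice (horizontal axis) for each member, filled points with 95% intervals from all 8 arrays, open diamonds from the 6 arrays. Adcy1 and Shank3 have intervals above 0, and the diamonds lie between 0.15 and 0.44.

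Against MPTP alone, whose arrays were used to choose the members, values are descriptive. On the probe sets used, acupoint mice lay above MPTP mice without overlap in Vav3 (0.48 ± 0.17, SE), Rgs16 (0.77 ± 0.19), Ptpn3 (0.30), Vipr2 (0.19), Adcy1 (0.37) and Shank3 (0.47), 6 of 10 members against 14.5% of probe sets. Non-acupoint mice did so in Rgs16 (0.43 ± 0.19), 1 of 10 against 5.67%, with a median member difference of 0.02.

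Of 17 measured genes of a list of other relay neuron genes, which holds none of the members, 12 had all injected arrays above the controls (10.3% of probe sets). The median differences from control were 0.55 with MPTP, 0.71 with acupoint and 0.53 with hip needling. The guanine nucleotide exchange factor gene Plekhg1 (1.12 ± 0.22, SE) and the actin-binding protein gene Synpo2 (1.08 ± 0.29) differed most between MPTP and control, Amotl1 by 0.73 and the cadherin gene Cdh6 by 0.68. None of the 17 passed (smallest adjusted p = 0.495, limma, for Plekhg1), and 9 had an unadjusted p under 0.05, where 5.29% of all probe sets did. This list was chosen with earlier results of these arrays known, and nothing is read from these counts. Slc17a6, a vesicular glutamate transporter gene of the list, did not follow in MPTP mice. It stood at 11.23 and 11.16 in controls and 10.97 and 11.41 in MPTP mice (-0.01 ± 0.22). Acupoint mice, at 11.67 and 11.69, lay above the controls without overlap (0.48), and non-acupoint mice stood at 11.07 and 11.59. The calcium-binding protein gene Calb2, named after its values were seen, was the only gene of the list lower without overlap in MPTP mice than in controls, at -0.20 ± 0.20 (SE).

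Hypothalamic and midbrain dopamine neuron markers had medians below the control mean on all injected arrays, where the members were above it. Their part in the result was not tested. Hypothalamic genes were lower in MPTP mice than in controls in all 13 measured, 10 of them without overlap (20.4% of probe sets), with array medians in injected mice of -1.24 to -0.25 against the control mean. Midbrain dopamine neuron genes were lower in MPTP mice in all 10, each without overlap (20.4% of probe sets). Their array medians in injected mice were -1.48 to -0.27. Th (tyrosine hydroxylase, which makes the dopamine precursor) stood at 9.34 and 9.10 in controls and at 5.97 to 8.75 in injected mice. All 6 injected arrays lay below both controls in 8 of the hypothalamic and 9 of the dopaminergic genes (9.66% of probe sets). In MPTP mouse 2 the list medians were -0.26 for the hypothalamic and -0.27 for the dopaminergic list, with all 10 dopaminergic genes below both controls, and the member median was 0.91. None of the defining markers was at 0, since these arrays give a level for each probe set.

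The lists of other regions and cell types are given in the same way, and their part in the result was likewise not tested. Reticular nucleus genes, the GABAergic shell of the thalamus, had array medians between -0.16 and 0.01 in injected mice, and pan-neuronal genes between -0.27 and 0.05. Choroid plexus genes had array medians of 1.35 to 1.95 in MPTP and acupoint mice and of -0.65 and -0.78 in non-acupoint mice. Habenula genes, from the nucleus next to the thalamus, had a higher mean in MPTP than in control mice in 9 of 10 genes. Of these, 3 were without overlap (18.2% of probe sets). They were higher in acupoint than in non-acupoint mice by a median of 0.93, beside the 0.18 of the members. This held in 9 of 10 genes, 8 of them without overlap (13.8% of probe sets). Gpr151, for example, stood at 7.14 and 7.91 against 4.93 and 5.62. Cortical and hippocampal genes had array medians of -0.24 to 0.65 in injected mice, astrocyte genes of -0.33 to 0.12, oligodendrocyte genes of -0.24 to 0.16 and microglial genes of -0.40 to -0.04. Striatal genes ranged from -0.98 to 1.44 over the injected arrays, with MPTP mouse 1 the highest.

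**Figure D5:**
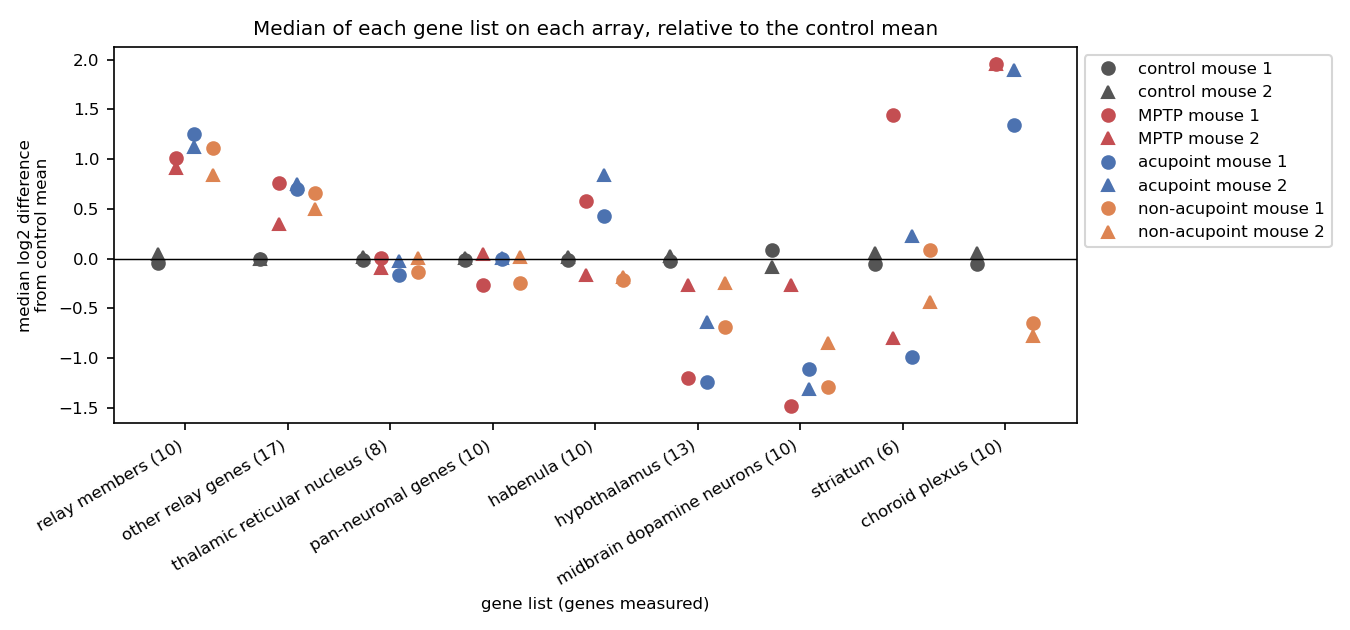
Median log2 difference from the control mean (vertical axis) of each gene list on each array (horizontal axis, with the number of genes measured), circles for mouse 1 and triangles for mouse 2. The members lie between 0.84 and 1.25 on all injected arrays, the hypothalamic and dopaminergic lists lie below 0 on those arrays, and the choroid plexus list is above 0 in MPTP and acupoint mice only.

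Genes with the profile most like the members were sought among 13514 other genes, by the root mean square difference over the 8 arrays from the mean member profile, each relative to its control mean. Ptpn4 was the closest (0.0721), followed by the citron kinase gene Cit (0.112), the vesicular glutamate transporter gene Slc17a7 (0.117), Stum (0.118) and Rasgrp1, a Ras activator (0.119). The potassium channel gene Kcnc2, the glutamate receptor delta-binding scaffold gene Grid2ip, Ogfrl1, Osbpl3 and Fras1 completed the 10 closest, at up to 0.159. For Slc17a7, which stood in the cortical and hippocampal list, this meant 8.94 and 9.03 in controls and 9.76 to 10.27 on the injected arrays. The members themselves lay at 0.111 (Vipr2) to 0.517 (Rgs16) from their own mean.

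The start regions of the members were searched for short motifs. The 250 bases before each annotated start came from RefSeq (GRCm38.p6), which gave 13 windows for 9 members; Prkch was not among them. The search covered both strands for the TCF and LEF core CTTTGAT, the cyclic AMP response element TGACGTCA, the nuclear receptor half-site AGGTCA and the E-box CACGTG. The first 2 had no match in these windows, where 3.21% and 1.55% of all 32851 windows hold them. CACGTG was found in 2 of the 13 windows, namely 1 Prkcd window and the Adcy1 window (6.02% of all windows). AGGTCA was found in the Adcy1 window (14% of all windows), where it overlaps the E-box. Another Prkcd window (chr14:30610311-30610560) had no match. The 2 windows with a match are shown with that of Rgs16, the member whose levels departed most from the others, 5′ to 3′ on the gene's strand, with motif matches in capitals. The Prkcd window is chr14:30626209-30626458 on the minus strand, the Adcy1 window chr11:7063183-7063432 on the plus strand, and the Rgs16 window, without a match, chr1:153740103-153740352 on the plus strand.
Prkcd: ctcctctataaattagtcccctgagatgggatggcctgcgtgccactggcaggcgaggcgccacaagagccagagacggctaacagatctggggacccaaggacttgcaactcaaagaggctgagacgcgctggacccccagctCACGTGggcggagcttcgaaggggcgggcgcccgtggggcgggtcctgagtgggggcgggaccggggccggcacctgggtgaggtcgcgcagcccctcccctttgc
Adcy1: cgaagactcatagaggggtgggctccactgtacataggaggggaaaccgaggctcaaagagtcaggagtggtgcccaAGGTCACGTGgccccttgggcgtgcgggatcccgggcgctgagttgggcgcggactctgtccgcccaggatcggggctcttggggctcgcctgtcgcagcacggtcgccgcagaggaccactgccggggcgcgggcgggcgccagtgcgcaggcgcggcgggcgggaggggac
Rgs16: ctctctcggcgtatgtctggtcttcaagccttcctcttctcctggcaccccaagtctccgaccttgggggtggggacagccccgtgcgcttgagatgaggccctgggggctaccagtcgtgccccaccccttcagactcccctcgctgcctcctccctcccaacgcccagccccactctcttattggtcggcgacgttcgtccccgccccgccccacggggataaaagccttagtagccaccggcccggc
The E-box begins 106 bases before the annotated start that follows the Prkcd window shown, and 169 bases before that of Adcy1. Both genes were high in all injected mice, as were 7 members without these letters in their window or without a window. A match is a description of the letters, and no binding was measured.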

How the data were processed

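Per the submitters' processing notes, the authors' deposited log2 values come from RMA (background correction, quantile normalization, probe summary) in Affymetrix Expression Console, version not given in the sources used here. RMA draws arrays to a common distribution and compresses differences of dim probe sets. Per the labels' protocols, each array took 300 ng of RNA from 1 of 2 mice per group. Of 35557 probe sets, 21789 had 1 gene symbol in the platform annotation. Unnamed probe sets and the dimmest 40% (mean under 5.63) were left out, which left 15791. In R 4.3.3, limma 3.58.1 fitted a mean per group to all 8 arrays (lmFit, eBayes, 4 residual and 2.53 prior degrees of freedom), with two-sided p-values adjusted by Benjamini-Hochberg over all probe sets and a threshold of 0.05. Error was estimated from 2 mice per group, pooled over groups. On simulated acupoint against non-acupoint data over 15791 probe sets, 38.8% of 67 planted 2-fold and 76.1% of 67 planted 4-fold changes were recovered, with 10 false calls. Noise was drawn independently for each array with 1 spread per probe set, so the 2 arrays that stood apart together were not modelled. No change as small as the member differences (log2 at most 0.47) was planted. These shares therefore do not give the power for the members.

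Members and gene lists were chosen with earlier results of these data known. The rule for named genes took all members, their other probe sets and paralogs, up to 4 genes per list by size of change, defining markers and the 10 genes of closest profile. Alternatives were other normalizations, filters, eBayes settings, weighted arrays, a fit of the 2 groups alone, a replicate block, averaged probe sets, 6 arrays, and leaving out each mouse.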

Additional observations from a re-analysis of the deposited data

How the results depend on the processing

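No member passed the threshold in acupoint against non-acupoint under any alternative run. The number of probe sets past it there was 0, but 19 with the 6 arrays, 2 with array weights, 2 with an intensity trend, 2 without the brightness filter and 0 to 1 when a mouse was left out. The median member difference in that comparison was 0.31 with the 6 arrays and 0.13 to 0.31 when a mouse was left out. Leaving out a mouse gave 0.83 to 1.02 for MPTP against control, 0.84 to 1.11 for non-acupoint against control and -0.021 to 0.22 for non-acupoint against MPTP. Averaging all probe sets of a gene gave 0.83 for non-acupoint against control. The difference of Tcf7l2 between acupoint and non-acupoint turned to -0.011 with cyclic loess and -0.019 with a further quantile normalization, and over mice left out it ran from -0.34 to 0.37, that of Ntng1 from -0.18 to 0.30 and that of Prkch from -0.13 to 0.32; the cause was not tested. The mouse number does not mark a shared source in the labels. Deviations of mice of like number correlated at 0.82 between the MPTP and non-acupoint groups, whose mice 1 are the 2 arrays that stood apart. Between the other groups these correlations were -0.28 to 0.19. With the mouse number as a replicate block the median was 0.18, 0 members passed and 378 probe sets had an unadjusted p under 0.05 (limma), against 299. Of 570 alternative values of a member's difference from control, 568 were positive. Most members were picked as higher than these same controls, and some settings, such as those of eBayes, cannot change a difference. Nothing is therefore read from this count. Signal over background limits dim probe sets, and 2 mice per group limit every test.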
